A study of Mus musculus with 34 samples.

Results

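The nuclear genes for the subunits of the mitochondrial respiratory chain and of ATP synthase were followed in mouse liver regrowing after partial hepatectomy (PHx). Members were taken by name from the deposited gene table, as the Nduf genes with a subgroup letter and number (complex I), Sdha to Sdhd (complex II), genes starting with Uqcr (complex III) and genes starting with Atp5 (complex V). Pseudogene names were removed, and a gene needed at least 10 counts in at least 4 libraries. Of 86 name matches, 12 were pseudogenes and 74 were candidates, and 69 of the 78298 genes in the table became members. They comprised 39 genes of complex I, 4 of complex II, 8 of complex III and 18 of complex V, and all 69 also passed the filter used for testing. The 5 candidates left out for low counts were Ndufa11b, Ndufb11b, Ndufb4b, Ndufs6b and a second gene identifier named Atp5po. The name rule places Ndufa4 in complex I, although its product is known as a subunit of complex IV (cytochrome c oxidase), and it places in complex V Atp5if1, which encodes an inhibitor of the enzyme rather than a subunit.

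Mice were male C57/Bl6 animals of 8 to 12 weeks. SIRTintKO mice lack Sirt1, a protein deacetylase, in the intestinal epithelium, through Cre recombinase under the Villin promoter acting on a Sirt1 allele with exon 4 flanked by loxP sites, and WT mice carried the floxed allele without Cre. Livers were taken from untreated mice (0 h; 6 WT, 6 SIRTintKO) and at 6 h (6 WT, 5 SIRTintKO) and 24 h (4 WT, 7 SIRTintKO) after removal of 70% of the liver, giving 34 libraries of bulk poly(A) RNA, each labelled as a biological replicate. The 0 h libraries carry a number series of their own, so handling that went with it cannot be told apart from surgery. Library totals ran from 14892122 to 23480492 counts, with a median of 16807340. The deletion acts outside the liver, and hepatic Sirt1 itself did not pass the test between genotypes at 0 h (log2 fold change -0.02, adjusted p = 1.0), 6 h (-0.13, adjusted p = 0.933) or 24 h (-0.65 ± 0.22 SE, adjusted p = 0.0726; edgeR, all genes). Markers of hepatocytes were all detected, with 70470 to 91343 CPM (counts scaled by library size) for the sum of 10 markers at 0 h.

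The respiratory chain passes electrons from NADH (complex I) and succinate (complex II) through complex III to complex IV, and complexes I, III and IV pump protons across the inner mitochondrial membrane. Complex V, ATP synthase, lets protons flow back and makes ATP. Complex II is also an enzyme of the citric acid cycle and is the only complex here encoded wholly in the nucleus, and the hepatocyte is a cell type rich in mitochondria. In bulk liver RNA, fewer cells of a type and less RNA per cell cannot be told apart.

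Before the comparisons, 3 libraries stood apart in a way that touches these genes, because many members have short coding sequences. The coding length of the 67 members with a value ran from 156 to 2181 nt, with a median of 432 nt. The median was highest for complex II (676.5 nt), followed by complexes I (432 nt) and V (415.5 nt), and lowest for complex III (300 nt). For each library, the slope of log2 CPM (as the difference from each gene's mean) on log2 coding length was computed over 12791 genes that are not members. The slope was -0.136 in WT 6 h replicate 6, -0.236 in SIRTintKO 24 h replicate 2 and -0.0989 in SIRTintKO 24 h replicate 3, each more than 2 scaled median absolute deviations below the median of 0.00941, while the other 31 libraries lay between -0.0553 and 0.0647. In these 3 libraries short genes were high. The median of the 34 members at or below 432 nt, as a log2 difference from the WT 0 h mean, was 0.90, 1.10 and 0.35 in the 3 libraries, against -0.02, -0.13 and -0.32 for the 33 longer members. Over all 34 libraries, the slope and the median of the short members had a Spearman rho of -0.88, and the slope and the long members one of -0.46; these points share library depth and scaling and are given as a description. The counts of members in the PHx and genotype comparisons are therefore given with all 34 libraries and without these 3, a choice made after the data were seen, while the counts for promoter motifs, other gene lists and cell markers use all 34; the reason why these libraries differ was not tested.

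**Figure D1:**
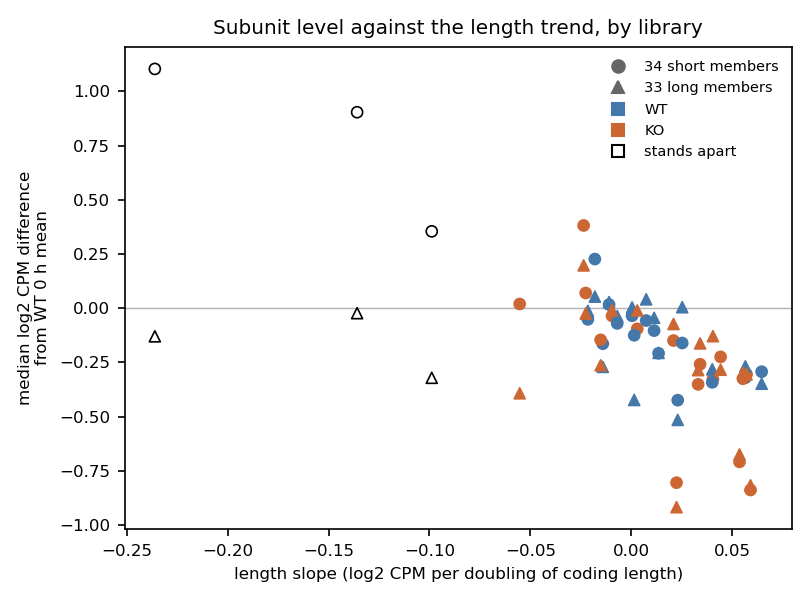
Each library is plotted by its length slope (log2 CPM per doubling of coding length, x axis) and the median log2 CPM difference from the WT 0 h mean (y axis) of the 34 short members (circles) and the 33 long members (triangles). WT is blue and SIRTintKO orange, and the 3 libraries that stand apart are white, with short members at 0.35 to 1.10 and long members at -0.32 to -0.02.

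Untreated livers of both genotypes held the subunit mRNAs at like levels. At 0 h the members took 1.08% ± 0.0652 (SD, n = 6) of all counts in WT and 1.04% ± 0.0776 (SD, n = 6) in SIRTintKO, with complex V at 43.5% ± 0.433 and 43.1% ± 1.5 of the member counts, complex I at 34.5% ± 0.570 and 34.8% ± 2.01, complex III at 13.9% ± 0.192 and 13.9% ± 0.560, and complex II at 8.11% ± 0.563 and 8.14% ± 1.15. Per kilobase of coding length, untreated WT levels were lowest for Ndufa4l2 (5.96 CPM per kb), a paralog of Ndufa4 known to respond to hypoxia, and for Ndufs1 (41.4) and Atp5if1 (41.8), and highest for Uqcrq (1120), named after its values were seen, and Ndufa4 (1043). The catalytic subunits of complex V, Atp5f1b and Atp5f1a, stood at 652 and 484 CPM per kb, and the complex II genes between 180 (Sdha) and 343 (Sdhd). In the comparison of SIRTintKO with WT at 0 h, 0 of 69 members and 0 of 14980 genes passed (0.0%; edgeR quasi-likelihood test, Benjamini-Hochberg adjusted p under 0.05 over all genes, hereafter passing), 0 members and 161 genes (1.07%) had an unadjusted p under 0.05, DESeq2 passed 0 members, and the members' log2 fold changes ran from -0.21 to 0.12.

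After PHx the members that passed the test were nearly all lower than at 0 h, in both genotypes. At 6 h, 6 of 69 members fell in WT and 0 rose, against 37.4% of all 14980 genes passing in either direction and 18.5% falling. In SIRTintKO at 6 h, 9 fell and 0 rose, against 38.4% of all genes passing and 17.6% falling. At 24 h, 14 fell and 0 rose in WT (34.1% of all genes passed, 14.6% falling), and 21 fell and 2 rose in SIRTintKO (50.2% passed, 24.0% falling and 26.2% rising). The members' share that passed was 8.70% and 13.04% at 6 h and 20.3% and 33.3% at 24 h in WT and SIRTintKO, below the share of all genes in each comparison. The share falling was above that of all genes at 24 h in both genotypes and below it at 6 h. The median log2 fold change of the 69 members was -0.02 and -0.26 at 6 h, and -0.29 and -0.23 at 24 h, beside medians of all genes between 0.01 and 0.04. The PHx comparisons of a genotype share its 0 h libraries.

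Without the 3 libraries that stand apart, the numbers of members falling were 8 in WT and 23 in SIRTintKO at 6 h, and 27 and 52 at 24 h, and 0 rose in any of these comparisons. All genes passed in either direction at 38.3%, 41.1%, 36.9% and 45.4% in these fits. The members' share at 24 h was above that of all genes, at 39.1% in WT and 75.4% in SIRTintKO. At 6 h it was below, at 11.6% and 33.3%. The share of all genes falling is not given for these fits. All 21 members that fell at 24 h in SIRTintKO with all libraries also fell without the 3, and so did the 14 of WT. The median log2 fold changes became -0.20 and -0.25 at 6 h and -0.28 and -0.51 at 24 h. With the length slope as a covariate over all 34 libraries instead, 56 members fell and 1 rose at 24 h in SIRTintKO, and 27 fell in WT. At 6 h this fit gave 8 falling and 9 rising in WT and 11 and 7 in SIRTintKO. All genes passed at 40.4% and 40.2% at 6 h, and at 37.2% and 51.1% at 24 h. Members rose at 6 h in this fit alone among the 3. The medians in this fit were 0.01 and -0.07 at 6 h, and -0.21 and -0.48 at 24 h, in WT and SIRTintKO. The direction at 6 h was thus not stable across the fits. In SIRTintKO the slopes were 0.0332 to 0.0572 at 6 h and -0.0236 to 0.0405 at 0 h, and none of the 3 libraries is in these groups.

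**Figure D2:**
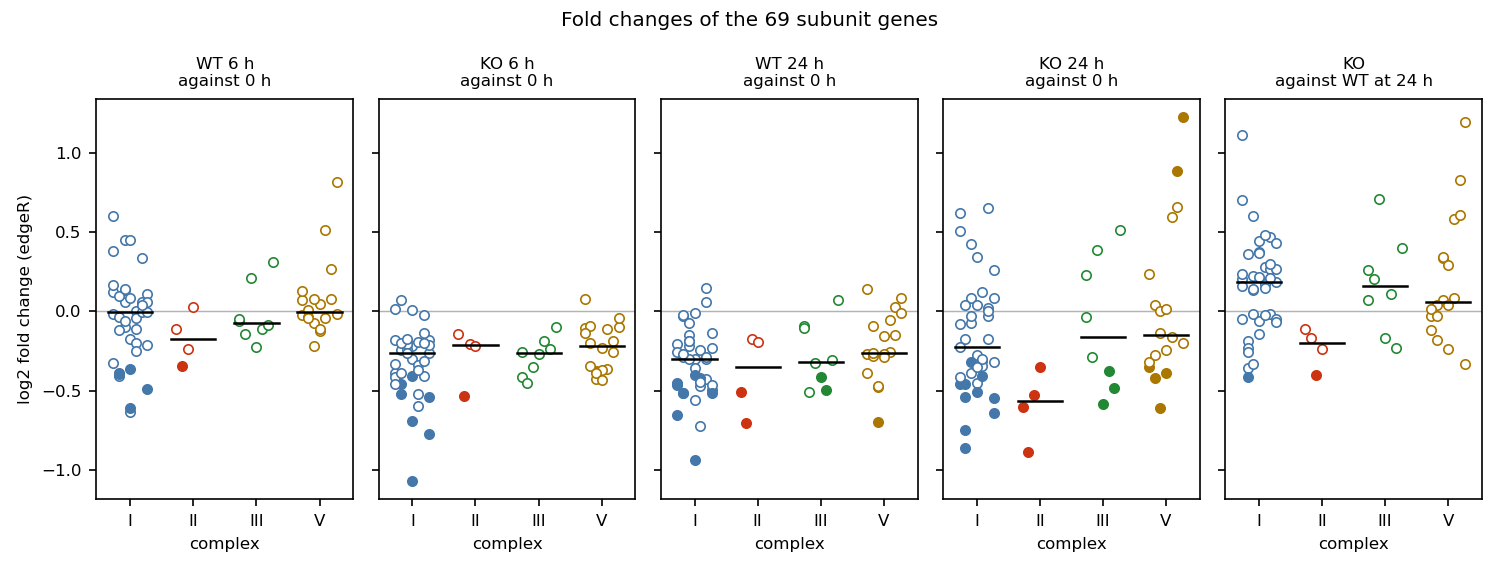
Log2 fold change (y axis) of each of the 69 genes by complex (x axis), in 5 comparisons with all libraries; filled points passed the test and black lines are medians. The filled points lie below 0 in the first 3 panels, all 4 complex II genes are filled at SIRTintKO 24 h, and 2 filled complex V genes lie above 0 there, at 0.89 and 1.23.

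Complex II, succinate dehydrogenase, had the most negative median of the 4 complexes at 24 h in both genotypes. Its median log2 fold change was -0.35 in WT and -0.57 in SIRTintKO, beside -0.30 and -0.23 for complex I, -0.32 and -0.16 for complex III and -0.26 and -0.15 for complex V. At 24 h in SIRTintKO, 4 of 4 complex II genes fell, beside 10 of 39 of complex I, 3 of 8 of complex III and 4 of 18 of complex V. In WT at 24 h the counts were 2 of 4, 9 of 39, 2 of 8 and 1 of 18, and without the 3 libraries 2 of 4, 18 of 39, 4 of 8 and 3 of 18. Without the 3 libraries the SIRTintKO medians lay closer together, at -0.54 for complex II, -0.52 for complex I, -0.44 for complex III and -0.42 for complex V, and 4 of 4, 32 of 39, 5 of 8 and 11 of 18 genes fell. Whether the complexes differ from each other was not tested, since genes are not replicates and the complexes differ in coding length.

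Sdhb, the iron-sulfur subunit of complex II, was the lowest complex II gene in all 4 PHx comparisons. Its level in untreated livers was 183, 186 and 192 CPM (lowest, median and highest of 6) in WT and 166, 184 and 231 CPM in SIRTintKO. At 6 h it was 121, 138 and 186 CPM in WT and 115, 127, 129, 132 and 144 CPM in the 5 SIRTintKO livers. At 24 h the 4 WT livers had 84.2, 109, 128 and 136 CPM, and the 7 SIRTintKO livers had 73.8, 108 and 139 CPM as lowest, median and highest. The SIRTintKO libraries at both times and the WT libraries at 24 h lay below every untreated library of their genotype, while WT at 6 h overlapped with 0 h. The log2 fold change was -0.34 ± 0.14 (SE, adjusted p = 0.048) in WT and -0.54 ± 0.14 (adjusted p = 0.00399) in SIRTintKO at 6 h, and -0.71 ± 0.16 (adjusted p = 9.4e-04) and -0.88 ± 0.13 (adjusted p = 2.97e-06; 1.85-fold lower) at 24 h. The WT fall at 6 h did not pass without the 3 libraries (-0.33) and did not pass in 15 of 34 fits with 1 library removed.

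Sdha, the flavoprotein subunit that binds succinate, fell at 24 h, with log2 fold changes of -0.51 ± 0.14 in WT (adjusted p = 0.00684) and -0.61 ± 0.12 in SIRTintKO (adjusted p = 1.51e-04), and had values of -0.11 and -0.15 at 6 h that did not pass. It was at 208, 238, 280 and 284 CPM in the 4 WT livers at 24 h, all below the lowest untreated WT value of 303 CPM. In SIRTintKO at 24 h it was 186, 236 and 280 CPM against 239, 365 and 474 CPM at 0 h, and the groups overlapped. Sdhc and Sdhd, which encode the membrane anchors, fell at 24 h in SIRTintKO (-0.53 ± 0.10, adjusted p = 7.41e-05, and -0.35 ± 0.12, adjusted p = 0.0168) and had values of -0.17 and -0.19 in WT that did not pass. Sdhc levels in SIRTintKO at 24 h were 71.5, 89.9 and 129 CPM, and at 0 h 121, 133 and 147 CPM; the highest of the 7 overlapped the untreated range.

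The promoters of Sdha, Sdhb and Sdhd, the complex II genes found in the promoter table, and of Ndufs7 are shown because all 4 genes fell at 24 h in SIRTintKO, and they were searched for motifs of factors known to act on respiratory chain genes. They are RefSeq sequences (build GRCm38.p6, from 250 bases before to 50 after the start), written 5′ to 3′ in the direction of the gene, with matches to the 4 motifs searched on both strands in capitals. The motifs were NRF1 (GCGCA and GCGC with any 1 base between them), ERR (TNAAGGTCA), GABP (CCGGAAGTG) and YY1 (AANATGGCG).
Sdha (chr13:74350191-74350490, minus strand): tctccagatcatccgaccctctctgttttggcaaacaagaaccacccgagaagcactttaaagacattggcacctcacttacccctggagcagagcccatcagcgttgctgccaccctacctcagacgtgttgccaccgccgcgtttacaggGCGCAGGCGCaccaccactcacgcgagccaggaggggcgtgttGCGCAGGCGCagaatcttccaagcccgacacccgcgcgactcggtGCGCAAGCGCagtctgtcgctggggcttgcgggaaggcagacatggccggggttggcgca
Sdhd (chr9:50603800-50604099, minus strand): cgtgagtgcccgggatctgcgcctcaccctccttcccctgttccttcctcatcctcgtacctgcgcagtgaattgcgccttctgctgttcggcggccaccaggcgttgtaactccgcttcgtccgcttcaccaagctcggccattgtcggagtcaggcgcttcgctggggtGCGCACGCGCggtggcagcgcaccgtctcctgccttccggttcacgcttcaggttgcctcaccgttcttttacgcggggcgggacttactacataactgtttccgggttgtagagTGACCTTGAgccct
Sdhb (chr4:140961021-140961320, plus strand): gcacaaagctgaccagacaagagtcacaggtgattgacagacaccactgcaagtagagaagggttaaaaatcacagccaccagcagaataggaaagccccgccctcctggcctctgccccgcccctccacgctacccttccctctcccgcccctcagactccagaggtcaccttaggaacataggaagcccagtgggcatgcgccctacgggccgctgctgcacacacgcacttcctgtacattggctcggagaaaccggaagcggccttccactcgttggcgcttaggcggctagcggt
Ndufs7 (chr10:80249199-80249498, plus strand): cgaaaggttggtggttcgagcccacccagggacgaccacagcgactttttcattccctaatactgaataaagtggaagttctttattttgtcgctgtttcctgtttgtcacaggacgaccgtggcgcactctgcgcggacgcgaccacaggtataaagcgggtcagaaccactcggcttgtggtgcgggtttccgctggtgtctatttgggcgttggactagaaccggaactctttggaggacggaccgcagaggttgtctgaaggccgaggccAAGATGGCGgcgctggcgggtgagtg
The Sdha window held 3 NRF1 matches, Sdhd held 1 NRF1 match and 1 ERR match, Ndufs7 held 1 YY1 match just after the start, and Sdhb held none of the 4.

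Of the 69 members, 55 had a promoter in the table, and the same letters were counted in all promoters. NRF1 letters were in 16 of 55 members (29.1%) and in 5.19% of all genes with a promoter, and YY1 letters in 10 members (18.2%) and 2.76% of all genes. ERR letters were in 3 members (5.45%, all genes 1.43%) and GABP letters in 2 (3.64%, all genes 2.25%). Among the 15 genes with a promoter that fell at 24 h in SIRTintKO, 4 held NRF1 letters, and among the 40 others 12 did. Among the 6 genes that fell at 6 h in WT, 0 held NRF1 letters and 1 held YY1 letters. A match is a stretch of letters and not a measured site.

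Across all 4 PHx comparisons, 5 members fell, namely Sdhb and the complex I genes Ndufs7, Ndufb10, Ndufa10 and Ndufb8. Of all genes, 14.6% to 24.0% fell in each single comparison. The share of all genes falling in all 4 was not computed, so this count is a description only. Ndufa10 and Ndufb8 were named after their values were seen. Ndufs7 encodes an iron-sulfur subunit of the peripheral arm of complex I, and Ndufb8, Ndufb10 and Ndufa10 encode accessory subunits. Ndufs7 was 65.8, 73.5 and 85.5 CPM in WT and 65.3, 74.2 and 103 CPM in SIRTintKO at 0 h. At 6 h it was 43.9, 51.4 and 61.9 CPM in WT, and 38.1, 39.4, 47.6, 48.9 and 51.4 CPM in the 5 SIRTintKO livers, below every untreated library of the genotype in both. At 24 h it was 36.6, 41.7, 62.8 and 66.3 CPM in WT, where the highest overlapped with 0 h, and 36.5, 51.0 and 62.0 CPM in SIRTintKO, where none did. Its log2 fold change was -0.49 ± 0.14 (adjusted p = 0.00863) and -0.77 ± 0.15 (adjusted p = 2.06e-04) at 6 h, and -0.52 ± 0.16 (adjusted p = 0.0153) and -0.64 ± 0.14 (adjusted p = 3.50e-04) at 24 h, in WT and SIRTintKO. The WT fall at 24 h did not pass without WT 24 h replicate 1 or 2, or when only the groups compared were fitted.

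Ndufb10 had the lowest complex I value at 24 h in SIRTintKO, -0.86 ± 0.15 (adjusted p = 1.67e-05), with levels of 50.2, 66.1 and 95.7 CPM against 106, 129 and 146 CPM at 0 h and no overlap. Its values were -0.39 ± 0.15 in WT and -0.52 ± 0.16 in SIRTintKO at 6 h and -0.51 ± 0.17 in WT at 24 h. The WT fall at 6 h was lost without the 3 libraries (-0.33) and in 6 of 34 fits with 1 library removed. The WT fall at 24 h was lost without WT 24 h replicate 1 or 2. Ndufa10 ran from -0.39 ± 0.11 (WT, 6 h) to -0.75 ± 0.10 (SIRTintKO, 24 h, adjusted p = 1.15e-06), and Ndufb8 from -0.36 ± 0.12 (WT, 6 h) to -0.51 ± 0.12 (SIRTintKO, 24 h, adjusted p = 5.81e-04). All of these genes have coding lengths from 528 to 1065 nt, above the members' median.

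**Figure D3:**
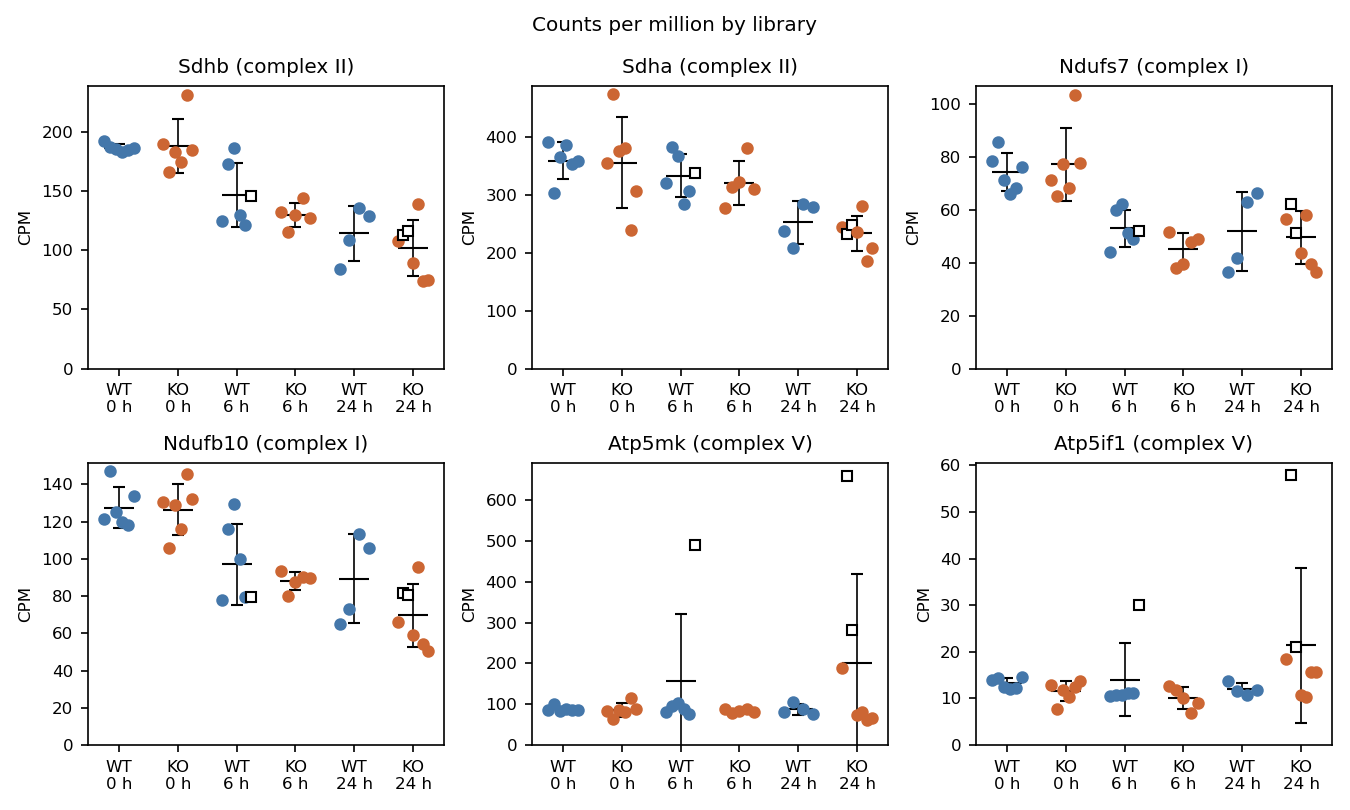
CPM (y axis) by group (x axis) for Sdhb, Sdha, Ndufs7, Ndufb10, Atp5mk and Atp5if1; each point is a library (WT blue, SIRTintKO orange, labelled KO), white squares are the 3 libraries that stand apart, and bars are mean ± SD with n of 6, 6, 6, 5, 4 and 7, cut at 0. The first 4 genes are lower at 24 h than at 0 h in both genotypes, while Atp5mk and Atp5if1 are high in the white squares, up to 659 and 58.0 CPM.

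Other core subunits of complex I moved mainly at 24 h. Ndufs1, the largest core subunit, had values of 0.16 and 0.01 at 6 h that did not pass, and fell at 24 h by -0.46 ± 0.13 in WT (adjusted p = 0.00779) and -0.46 ± 0.11 in SIRTintKO (adjusted p = 0.00104). Between 6 h and 24 h it fell in both genotypes, by -0.62 ± 0.13 in WT and -0.47 ± 0.12 in SIRTintKO. Ndufv1, which binds NADH and FMN, fell at 24 h in SIRTintKO (-0.54 ± 0.10, adjusted p = 3.29e-05) and did not pass in WT (-0.27 ± 0.11). Ndufs3 fell at 24 h in SIRTintKO by -0.32 ± 0.13 (adjusted p = 0.0457), a call lost in 9 of 34 fits with 1 library removed and in 4 of 10 other settings, DESeq2 size factors and the replicate block among them. Ndufs8 fell at 24 h in WT (-0.65 ± 0.22, adjusted p = 0.0203) and did not pass in SIRTintKO (-0.42 ± 0.18, adjusted p = 0.059). The WT call of Ndufs8 was lost without WT 24 h replicate 1 or 2. The value of Ndufv2 was -0.03 in SIRTintKO at 24 h, and -0.41 without the 3 libraries, where it passed.

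Ndufa6, an accessory subunit, was the lowest complex I gene at 6 h in both genotypes and at 24 h in WT. Levels were 128 to 198 CPM in the 12 untreated livers and 69.2, 71.1, 73.9, 75.6 and 80.9 CPM in SIRTintKO at 6 h. In WT at 6 h it was 71.6, 80.3 and 224 CPM, and the highest was the library that stands apart. Its log2 fold change at 6 h was -1.07 ± 0.28 in SIRTintKO (adjusted p = 0.00349), the only member past 2-fold against 16.6% of all genes, and -0.63 ± 0.27 in WT (adjusted p = 0.0601), which became -1.01 and passed without the 3 libraries. At 24 h the values were -0.94 ± 0.30 in WT (adjusted p = 0.0171) and -0.45 ± 0.25 in SIRTintKO (adjusted p = 0.138). The SIRTintKO value became -0.89 and passed without the 3 libraries. The WT call at 24 h was lost without WT 24 h replicate 1 or 2.

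In complex III, the core proteins Uqcrc1 and Uqcrc2 fell at 24 h in both genotypes, and Uqcrfs1, the Rieske iron-sulfur protein, fell in SIRTintKO. Uqcrc1 was 141, 154, 160 and 180 CPM in WT at 24 h and 113, 145 and 168 CPM in SIRTintKO, below every untreated library (198 to 231 CPM in WT and 203 to 222 CPM in SIRTintKO). Its log2 fold change was -0.41 ± 0.12 (adjusted p = 0.00893) and -0.58 ± 0.10 (adjusted p = 2.86e-05). Uqcrc2 fell by -0.49 ± 0.11 in WT (adjusted p = 0.00123) and -0.38 ± 0.10 in SIRTintKO (adjusted p = 0.00152), and Uqcrfs1 by -0.48 ± 0.11 in SIRTintKO (adjusted p = 7.84e-04), with -0.31 ± 0.13 in WT not passing. No complex III gene passed at 6 h in either genotype with all libraries. The small subunits went apart from the core ones in SIRTintKO at 24 h, with Uqcrh at 0.51 ± 0.29 and Uqcrb at 0.39 ± 0.30, neither passing, and -0.17 and -0.32 without the 3 libraries. Uqcr11 was lowest of the complex at 6 h in SIRTintKO (-0.45 ± 0.26) and at 24 h in WT (-0.51 ± 0.28), and neither passed.

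In complex V, Atp5f1c, the central stalk subunit, was the lowest gene at 24 h in both genotypes. It was 128, 145, 172 and 175 CPM in WT at 24 h against 236, 252 and 264 CPM at 0 h, and 123, 159 and 224 CPM in SIRTintKO against 230, 241 and 279 CPM, with no overlap in either. The log2 fold change was -0.70 ± 0.14 (adjusted p = 4.50e-04) in WT and -0.61 ± 0.12 (adjusted p = 1.28e-04) in SIRTintKO. The catalytic subunits Atp5f1a and Atp5f1b fell at 24 h in SIRTintKO by -0.35 ± 0.10 (adjusted p = 0.00503) and -0.42 ± 0.12 (adjusted p = 0.00375), and had values of -0.27 ± 0.12 and -0.28 ± 0.14 in WT that did not pass. The genes of the membrane ring, Atp5mc1, Atp5mc2 and Atp5mc3, which encode the same mature protein, passed in none of the 4 PHx comparisons, with values from -0.20 to 0.24; reads of the shared coding part can be split between them by the counting.

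Complex V also held the 2 members that rose at 24 h in SIRTintKO, the small membrane subunit Atp5mk (1.23 ± 0.45, adjusted p = 0.0225) and the inhibitor Atp5if1 (0.89 ± 0.29, adjusted p = 0.0127). Atp5mk was 61.3, 65.8, 74.7, 80.2, 189, 281 and 659 CPM in the 7 SIRTintKO livers at 24 h, and 64.2, 84.2 and 115 CPM at 0 h. The 2 highest values came from the 2 libraries of this group that stand apart, and 4 of the 7 lay within the untreated range or below it. Without the 3 libraries the value was 0.12 for Atp5mk and 0.29 for Atp5if1, and neither passed. From 6 h to 24 h in SIRTintKO, Atp5mk (1.27 ± 0.48, adjusted p = 0.0449), Atp5if1 (1.08 ± 0.31, adjusted p = 0.0113) and Atp5mj (0.91 ± 0.34, adjusted p = 0.0433) rose, and without the 3 libraries the values were 0.16, 0.48 and 0.15, of which Atp5if1 passed. The value of Atp5mk changed sign with the length slope as a covariate (-0.29).

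Direction of change went with coding length among the members. The same counts were not made for short and long genes outside the members. The split is therefore not shown to be particular to the members. At 24 h in SIRTintKO, 0 of the 34 members at or below 432 nt fell and 2 rose, with a median log2 fold change of 0.03, while 21 of the 33 longer members fell, with a median of -0.41. The Spearman rho between coding length and log2 fold change over 67 members was -0.72, and it is given as a description since the members share libraries. Without the 3 libraries, 21 of the 34 short and 30 of the 33 long members fell, the medians were -0.42 and -0.54, and rho was -0.36. In WT at 24 h, where no library stands apart, 1 short and 13 long members fell, the medians were -0.24 and -0.31, and rho was -0.37. In the covariate fit for SIRTintKO at 24 h, 24 short members fell and 1 rose, and 30 long members fell.

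**Figure D4:**
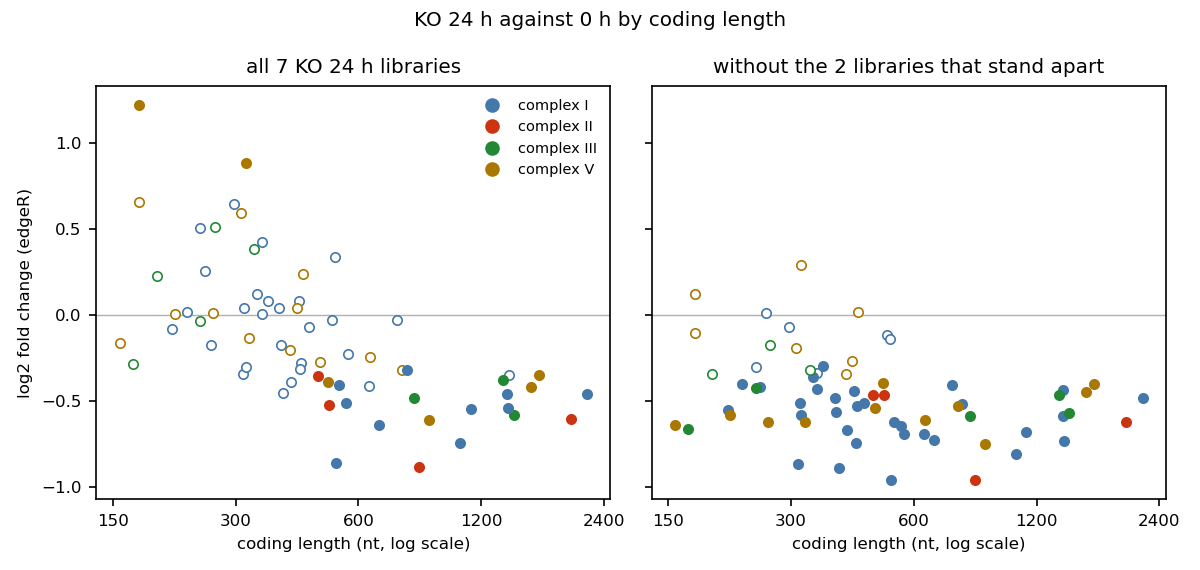
Log2 fold change at 24 h against 0 h in SIRTintKO (y axis) by coding length in nt (x axis, log scale) for 67 members, colored by complex, with all 7 libraries of the group (left) and in the fit without the 3 libraries that stand apart, of which 2 are in this group (right); filled points passed. On the left short members reach 1.23 and long members fall, and on the right 51 of the 67 points are filled and below 0.

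Between 6 h and 24 h, 4 members fell and 0 rose in WT (16.5% of all genes passed, 6.43% falling), and 7 fell and 3 rose in SIRTintKO (27.6% of all genes passed, 14.4% falling and 13.2% rising). The WT members were Ndufs1, Uqcrc2, Atp5f1c and Atp5pb, a peripheral stalk subunit of complex V, and the SIRTintKO members that fell included Ndufs1, Ndufv1, Sdha, Sdhc, Uqcrc1 and Atp5f1b; Atp5pb and Atp5mj were named after their values were seen. From 6 h to 24 h in SIRTintKO, Atp5f1b did not pass in 29 of 34 fits with 1 library removed and in 9 of 10 other settings, Sdhc in 3 and 6, and Uqcrc1 in 7 and 5, and neither Atp5f1b nor Sdhc passed without the 3 libraries. The median log2 fold change was -0.25 in WT and 0.19 in SIRTintKO. Without the 3 libraries the medians were -0.07 and -0.23, with 4 members falling in WT (15.2% of all genes passed), and 14 falling and 1 rising in SIRTintKO (21.8%), so the SIRTintKO median turned direction.

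Few members separated the genotypes directly. At 6 h, 0 of 69 members passed between SIRTintKO and WT by edgeR and 0 by DESeq2, against 0 of all genes (0.0%), with 1 member (Sdhd) and 976 genes (6.52%) at an unadjusted p under 0.05. The median log2 difference of the members was -0.31 with all libraries and -0.09 without the 3. At 24 h, 2 of 69 members passed, both lower in SIRTintKO, against 5.81% of all genes in either direction and 3.51% lower. Among them was Sdhc (-0.40 ± 0.11, adjusted p = 0.030). Sdhc was 111, 118, 130 and 134 CPM in WT, and 129 CPM in the highest of the SIRTintKO livers, with the other 6 at 71.5 to 102 CPM. The value of Sdhc was -0.34 without the 3 libraries, where 0 of 69 members passed (14 at an unadjusted p under 0.05), against 1.44% of all genes.

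The median of the 69 members between genotypes at 24 h was 0.14 with all libraries and -0.21 without the 3, and -0.20 with the covariate, so the direction for the members as a group was not stable across these fits. The highest members at 24 h with all libraries were Atp5mk (1.2 ± 0.51) in complex V, Ndufb1 (1.11 ± 0.52) in complex I and Uqcrb (0.71 ± 0.35) in complex III, none of which passed, and these became 0.10, 0.13 and 0.01 without the 3. In complex V the lowest was Atp5mc1 (-0.33 ± 0.17) and in complex III Uqcrfs1 (-0.23 ± 0.13), neither passing. Sdhc, the lowest of complex II, passed with all libraries. In complex II all 4 values were below 0 in both fits, from -0.40 to -0.11 with all libraries and from -0.35 to -0.13 without the 3. Of all 69 members, 26 were below 0 with all libraries and 63 without the 3. The response to PHx was not shown to differ between genotypes for any member: 0 of 69 passed the interaction test at 6 h and at 24 h by edgeR and by DESeq2, with 0 and 3 members (and 3.05% and 12.7% of all genes) at an unadjusted p under 0.05, against 0.0% and 0.00668% of all genes passing.

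Among libraries of 1 group the members' level spread widely at 24 h in SIRTintKO. The median log2 CPM difference of the 69 members from the WT 0 h mean was -0.86, -0.83, -0.70, -0.19 and -0.18 in the 5 livers that do not stand apart, and 0.01 and 0.73 in the 2 that do. The value of -0.18 was from replicate 1, which is kept in the fits without the 3 libraries. Its slope of -0.0553 was the lowest of the other 31 libraries, with short members at 0.02 and long members at -0.39. In WT at 24 h it was -0.49, -0.33, -0.22 and -0.21, and in SIRTintKO at 6 h -0.33, -0.32, -0.31, -0.28 and -0.22. Replicates 4, 6 and 7 of SIRTintKO at 24 h were thus the lowest of all 34 libraries, and all 4 complexes were low in them, from -0.63 to -0.91.

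**Figure D5:**
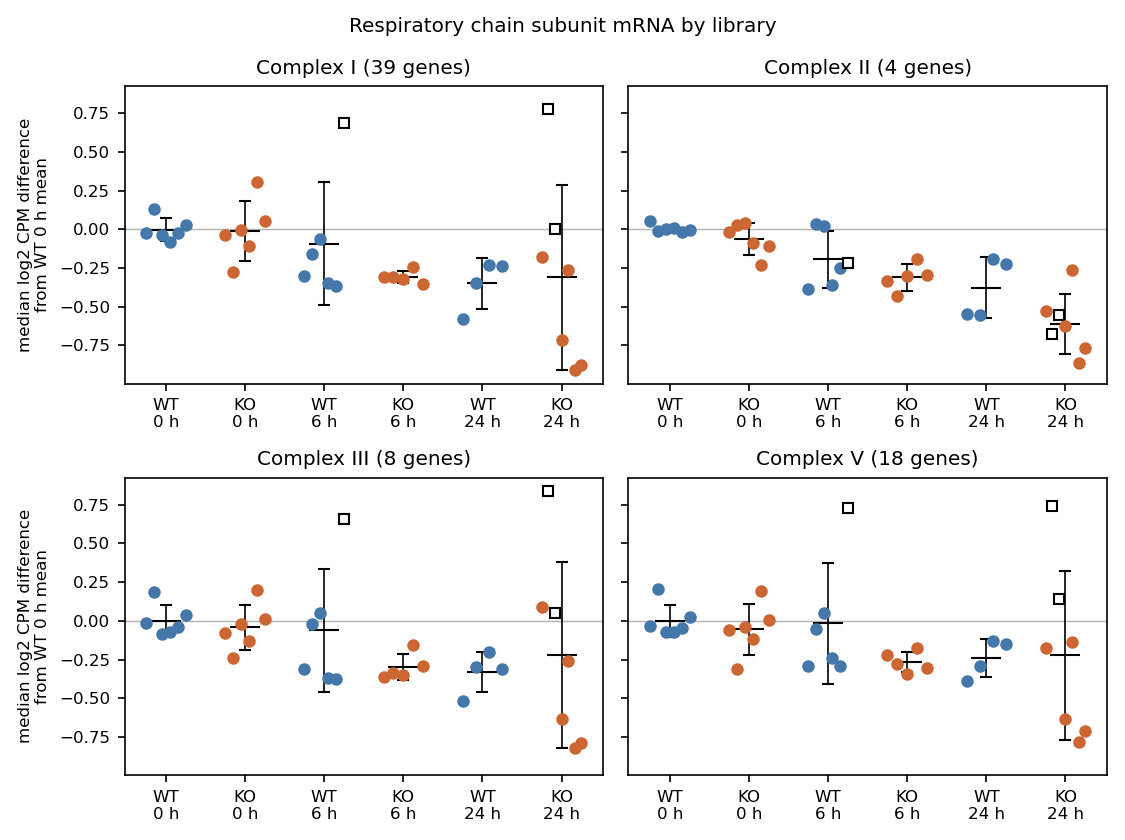
Median log2 CPM difference from the WT 0 h mean (y axis) of the genes of each complex, by library and group (x axis; WT blue, SIRTintKO orange and labelled KO, white squares the 3 libraries that stand apart; bars mean ± SD, n of 6, 6, 6, 5, 4 and 7). Complexes I, III and V are high in 2 of the white squares and complex II is not, and 3 SIRTintKO libraries at 24 h lie between -0.63 and -0.91 in all panels.

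Other genes of the pathway were taken from lists of the pathway and compared at 24 h against 0 h, where 34.1% of all genes passed in WT (14.6% falling) and 50.2% in SIRTintKO (24.0% falling). Of 12 tested nuclear subunits of complex IV, 0 passed in WT and 4 fell in SIRTintKO, with medians of -0.17 and -0.08. Of 13 subunits encoded in mitochondrial DNA, 2 fell in WT and 7 in SIRTintKO, and 0 rose, with medians of -0.37 and -0.52. The share of counts from mitochondrial DNA was 8.23% ± 0.548 and 8.24% ± 0.562 at 0 h (n = 6 each), and 6.22% ± 0.786 (n = 4) and 6.13% ± 1.15 (n = 7) at 24 h in WT and SIRTintKO. Of 16 complex I assembly factors 3 fell in WT and 6 in SIRTintKO, and of 78 mitochondrial ribosomal proteins 7 rose and 4 fell in WT, and 10 rose and 20 fell in SIRTintKO. Of 12 citric acid cycle enzymes 4 fell in each genotype and 0 rose. At 6 h 6 of them rose and 2 fell in WT, and 3 rose and 2 fell in SIRTintKO. Of all genes at 6 h, 18.9% rose and 18.5% fell in WT, and 20.9% rose and 17.6% fell in SIRTintKO. In SIRTintKO at 24 h, 0 of 4 complex II assembly factors passed, and 1 of 6 for complex III rose and 3 fell. For complex IV 4 of 18 fell, and for complex V 1 of 4 rose and 3 fell. In WT at 24 h, 0 of 4 passed for complex II, and 1 of 6 rose and 1 fell for complex III. There 3 of 18 fell for complex IV and 1 of 4 for complex V. Of 9 mitochondrial carriers and channels 4 rose and 1 fell in SIRTintKO at 24 h, and 1 rose and 1 fell in WT.

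Of 17 genes listed as regulators of mitochondrial genes, 5 rose and 2 fell in WT at 6 h, and 6 rose and 1 fell in SIRTintKO. Of all genes, 37.4% and 38.4% passed there. At 24 h against 0 h, 2 rose and 1 fell in WT and 1 rose and 2 fell in SIRTintKO, and from 6 h to 24 h 3 fell in WT and 9 in SIRTintKO, where 16.5% and 27.6% of all genes passed. Pprc1, a coactivator related to PGC-1α, rose in all 4 comparisons, by 1.13 ± 0.22 and 1.67 ± 0.23 at 6 h and 1.12 ± 0.24 and 1.16 ± 0.22 at 24 h in WT and SIRTintKO. Ppargc1a, which encodes PGC-1α itself, rose at 6 h (1.41 ± 0.37 in WT, adjusted p = 0.00348, and 0.98 ± 0.39 in SIRTintKO, adjusted p = 0.0451). Polg2, a subunit of the mitochondrial DNA polymerase, fell in all 4, by -1.30 ± 0.29, -1.31 ± 0.32, -1.02 ± 0.33 and -1.22 ± 0.28. Esrra, the receptor ERRα, rose at 6 h in WT (0.70 ± 0.23), and Nrf1 rose at 6 h in SIRTintKO (0.55 ± 0.15). Of the 17 genes, 0 passed between genotypes at 6 h and 0 passed the interaction test at 6 h. A response particular to 1 genotype was therefore not shown for either gene. Twnk, the mitochondrial helicase, was the 1 gene of this list that passed between genotypes at 24 h, at -0.66 ± 0.19 (adjusted p = 0.0348). Of all genes, 5.81% passed there with all 34 libraries. Polg2 and Twnk act on mitochondrial DNA itself and are not transcriptional regulators.

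Markers of several liver cell types also differed between 24 h and 0 h, where 34.1% (WT) and 50.2% (SIRTintKO) of all genes passed. The summed level of 10 hepatocyte markers was 80591 to 88969 CPM in WT at 0 h and 33571 to 53824 CPM at 24 h, and 70470 to 91343 CPM and 53778 to 80616 CPM in SIRTintKO, and 4 of 10 markers fell in each genotype. The sum of 8 neutrophil markers was 7.04 to 23.7 CPM in WT and 4.13 to 22.5 CPM in SIRTintKO at 0 h, and 8.76 to 120 CPM and 28.2 to 801 CPM at 24 h, with 4 and 7 of the 7 tested markers rising. Of 8 monocyte and macrophage markers 4 rose and 3 fell in WT at 24 h, and 6 rose and 1 fell in SIRTintKO. No marker of these lists was at 0 in every library. Of 6 sinusoidal endothelial markers 4 fell in each genotype, of 5 cholangiocyte markers 3 rose in each, and the 2 lymphocyte markers tested fell in both. Of 5 Kupffer cell markers 3 fell in WT, and 1 rose and 1 fell in SIRTintKO, of 6 stellate cell markers 2 fell in WT, and 2 rose and 2 fell in SIRTintKO, and of 5 red blood cell markers 1 fell in WT, and 1 rose and 1 fell in SIRTintKO. The part of cell composition in the members' changes was not tested.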

How the data were processed

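Bulk poly(A) RNA of 34 livers was sequenced by the authors as stranded paired-end libraries of 100 bp reads and processed with nf-core/rnaseq (STAR and Salmon; GRCm39 in the submitters' processing notes). The deposited table holds estimated counts (expected counts) per gene, of which 4.97% are not whole, and these were rounded here. One value column of the table (1 of 35) matched no label and was not used, and its group is not known. Lost letters in 1316 gene symbols were restored by gene ID, none of them a member. Groups came from the labels, with 1 library per mouse.

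Counts were tested with edgeR 4.0.16 (R 4.3.3; TMM scaling, low counts filtered to 14980 genes, quasi-likelihood test over all 6 groups, Benjamini-Hochberg adjustment over all genes). CPM of single genes uses TMM-scaled totals, while the CPM sums of cell markers use unscaled library totals. A gene passed at an adjusted p under 0.05, and was past 2-fold at an absolute log2 fold change over 1. The pipeline was checked on simulated counts. DESeq2 1.42.0 was an alternative, as were other scalings, filters, the replicate block, only the groups compared, and leaving out each library. The fits without 3 libraries and with a length covariate were added after the data were seen. Library totals were 14892122 to 23480492 counts, and the common biological coefficient of variation was 0.302.

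The members and lists were chosen with earlier results of these data known. Named genes were, by rule, the highest and lowest member of each complex in the 4 comparisons with 0 h and between genotypes at 24 h, the Sdh genes, the core subunits of complexes I and III, the catalytic and ring subunits of complex V, Ndufa4, Ndufa4l2, Atp5if1, and members past 2-fold. Other members are named as chosen after their values were seen. The genes named from the list of regulators of mitochondrial genes each passed in at least 1 comparison, and the rest of the 17 are not named. Results for 1 member are not reported here.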

Additional observations from a re-analysis of the deposited data

Results flagged for a closer look

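Among 198 sets of values from 1 group, 32 had a highest or lowest library far from the others by Dixon's test. Chance gives about 1 in 20 for a single set, but this rate does not apply to the count. The sets share libraries, and some genes were named for their high or low values in these same data. The count is therefore a description only.

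WT 6 h replicate 6 accounted for 11. Its length slope was -0.136, and it was high in Atp5if1 (29.96 CPM), Atp5mk (490.9), Ndufa2 (199.9), Ndufa4 (937), Ndufa6 (224), Ndufb1 (380), Ndufv2 (212), Uqcr11 (290), Uqcrb (402) and Uqcrh (463). SIRTintKO 24 h replicate 2 accounted for 9, high in Atp5if1 (58.0 CPM), Atp5mk (659), Atp5po (302), Ndufa2 (334), Ndufa4 (1024), Ndufa6 (256), Ndufb1 (367), Uqcrb (518) and Uqcrh (666). Both are among the 3 libraries in which short genes were high.

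WT 0 h replicate 2 accounted for 6, with Atp5mc1 at 187 CPM, Atp5mc3 at 383, Atp5mk at 100.4, Ndufa2 at 92.7 and Uqcr11 at 209, and with 1.202% of its counts from members. SIRTintKO 0 h replicate 5 accounted for 3, with Atp5f1b at 724 CPM, Ndufs7 at 103 and Sdhb at 231. SIRTintKO 6 h replicate 4 had Atp5f1a at 836 CPM and 0.861% of its counts from members. WT 24 h replicate 1 had the low Ndufb1 value of its group (47.2 CPM).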

How the results depend on the processing

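The number of members passing stayed within 1.5 times its value, with DESeq2, its size factors in edgeR, TMM without mitochondrial-DNA-encoded genes, and a minimum of 10 counts in every library, in all 11 comparisons. Upper-quartile scaling moved SIRTintKO 6 h from 9 to 17. Testing every gene with at least 1 count gave 3 for WT 6 h, 1 for WT 24 h against 6 h, 5 for SIRTintKO 24 h against 6 h and 0 between genotypes at 24 h. Fitting only the groups compared gave 28 for SIRTintKO 6 h, 26 for WT 24 h, and 0 and 3 for 24 h against 6 h in WT and SIRTintKO, and 0 between genotypes at 24 h. The length covariate gave 17 and 18 at 6 h, 27 and 57 at 24 h, 22 and 49 for 24 h against 6 h in WT and SIRTintKO, and 4 between genotypes at 24 h, and turned Atp5mk for SIRTintKO 24 h against 6 h to -0.29. Without the 3 libraries that stand apart, the counts were 23 for SIRTintKO 6 h, 27 and 52 at 24 h, and 0 between genotypes at 24 h.

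Replicate numbers did not pair the samples (correlations from -0.31 to 0.22, and in 0 of 15 group pairs was every one over 0.1; in 7 of 76 same-number pairs did a library correlate best with its own number). The replicate block gave 4 for SIRTintKO 24 h against 6 h and 0 between genotypes at 24 h, and moved no other count past 1.5 times.

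Leaving out 1 library gave 4 to 9 (WT) and 8 to 15 (SIRTintKO) at 6 h, 6 to 17 and 22 to 35 at 24 h, 1 to 5 and 4 to 15 for 24 h against 6 h, 0 to 2 between genotypes at 24 h, 0 to 1 for the interaction at 24 h, and 0 to 0 for the other 3. Without SIRTintKO 24 h replicate 2 the counts were 15 (SIRTintKO 6 h), 35 (SIRTintKO 24 h), 6 (SIRTintKO 24 h against 6 h) and 1 (genotypes at 24 h). Without WT 24 h replicate 1 or 2, WT 24 h gave 6 or 9, and WT 24 h against 6 h gave 1 or 2. Without WT 6 h replicate 2 or 3 the latter gave 2 or 1. SIRTintKO 24 h against 6 h gave 6, 6, 4 and 6 without SIRTintKO 6 h replicates 2 to 5. The genotype count at 24 h was 1 without WT 24 h replicate 2 or SIRTintKO 24 h replicate 3, and 0 without WT 24 h replicate 3 or 4 or SIRTintKO 24 h replicate 6 or 7. The interaction at 24 h gave 1 without SIRTintKO 24 h replicate 5. Of 50 passing results of genes under the naming rule, 29 passed in every such fit and 21 were lost in at least 1; the cause was not tested.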
